A study of Mus musculus with 8 samples.

Results

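The ERVL family of endogenous retroviruses was examined in RNA-seq libraries of mouse embryonic stem cells (mESCs). Members were all entries of the count tables whose family field reads exactly ERVL, which leaves out the non-autonomous ERVL-MaLR elements. There were 113 such subfamilies among 1153 transposable element subfamilies and 25215 features in all. Of the 113 members, 94 passed the filter on low counts and were tested, and the other 19 held at most 46 counts over all libraries together, 2 of them none. The 8 members whose names begin with MERVL or MT2 were set against the 105 others, of which 86 were tested.

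All 8 libraries came from one line of mESCs, #33-6, which carries a conditional allele of Setdb1, grown on gelatin-coated dishes with LIF. There were 2 replicates in each of 4 conditions. Untreated cells served as WT. Cells treated with 2 µM UNC0642, an inhibitor of the H3K9 methyltransferases G9a and GLP, for 3 days are called UNC0642 mESCs. Setdb1 was deleted with 800 nM 4-hydroxytamoxifen (4-OHT) for 5 days (Setdb1 KO mESCs). In the combined condition (Setdb1 KO/UNC0642 mESCs) the labels give 4-OHT for 2 days and then UNC0642 for 3 days. No library of WT or UNC0642 mESCs received 4-OHT, so loss of Setdb1 and exposure to 4-OHT cannot be told apart. By the labels Setdb1 KO mESCs had 4-OHT for 5 days and the combined condition for 2. Between these conditions UNC0642 and the days of 4-OHT cannot be told apart. Every condition rests on one cell line, so the p-values below measure only the spread between these libraries. The study's methods call the 2 RNA-seq replicates biological, while the labels do not say whether they were grown separately.

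ERVL elements are an old group of retroviral sequences. In the mouse the youngest branch is MERVL, an internal coding part flanked by MT2_Mm long terminal repeats (LTRs) that act as promoters. MERVL is transcribed in two-cell embryos and in a rare, cycling state of mESC cultures, together with genes such as the Zscan4 cluster, and it has no envelope gene. SETDB1 deposits H3K9me3 on many endogenous retroviruses, whereas G9a and GLP deposit H3K9me2 and have long been known as repressors of MERVL. An internal part and its LTR are separate rows of the tables, written MERVL-int and MT2_Mm, and a row sums all copies in the genome.

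Library totals lay between 11702590 and 26807807 counts, and transposable elements took between 2.77% and 17.1% of them. As the check of the labels, Setdb1 stood at 169 and 127 CPM (counts scaled to library size after TMM normalisation) in WT mESCs, at 130.5 and 86.4 in UNC0642 mESCs, at 47.3 and 51.0 in Setdb1 KO mESCs, and at 61.1 and 34.1 in Setdb1 KO/UNC0642 mESCs. All 4 libraries labelled KO lay below all 4 others. The log2 fold change over WT was -1.59 ± 0.44 (SE) in Setdb1 KO mESCs (edgeR quasi-likelihood test, adjusted p = 0.181, or 0.0164 with a replicate block, and up to 0.836 over 17 alternatives) and -1.64 ± 0.44 in Setdb1 KO/UNC0642 mESCs (adjusted p = 0.0746, or 0.00593 with the block, and up to 0.317 over 17 alternatives). The 12 markers of mESCs summed to between 4819 and 7004 CPM in every library. In all libraries the 8 markers of fibroblasts or feeder cells stayed at or under 20.7 CPM in sum, and the 5 of red blood cells and macrophages at or under 5.67 CPM, 1 of these 5 having no count in any library. Neither these nor the 8 markers of trophectoderm (27.4 to 134 CPM in sum) or the 8 of primitive endoderm (50.9 to 244 CPM) had a member called by edgeR without the block in a comparison with WT, and at most 1 member of a list had an unadjusted p under 0.05 in one direction. Over WT, 7 of the 8 primitive endoderm markers had a log2 fold change above 0 in UNC0642 and 1 in Setdb1 KO mESCs. In Setdb1 KO over UNC0642 mESCs 0 of these 8 did (median -1.63, 3 at an unadjusted p under 0.05). There the block called Pdgfra lower (edgeR adjusted p = 0.0251) and the trophectoderm marker Krt18 higher (0.0364). Of 8 germ layer markers, Fgf5 was called in Setdb1 KO/UNC0642 mESCs (log2 fold change 4.64, adjusted p = 0.0493, or 0.0221 with the block), and their sum was 127 to 167 CPM in WT, 126 to 152 in UNC0642, 313 to 415 in Setdb1 KO and 249 to 322 in Setdb1 KO/UNC0642 mESCs, none of the 8 being at 0 counts in all libraries. With the block Otx2, which was at 60.4 and 32.9 CPM in WT, 67.6 and 25.8 in UNC0642, 322 and 228 in Setdb1 KO and 118 and 155 in Setdb1 KO/UNC0642 mESCs, was called higher in both KO conditions (adjusted p = 0.00851 and 0.0225), and Fgf5 in Setdb1 KO mESCs (0.0319). Otx2 thus made up most of the Setdb1 KO sum. Of 7 germ layer markers tested, 4 had a log2 fold change above 0 over WT in Setdb1 KO and 5 in Setdb1 KO/UNC0642 mESCs. Mixl1 went the other way, from 1.57 and 1.55 CPM in WT to 0.415 and 0.147 in Setdb1 KO/UNC0642 mESCs (-2.59, edgeR adjusted p = 0.181, or 0.0663 with the block). In Setdb1 KO/UNC0642 mESCs the block also called the trophectoderm marker Eomes lower (adjusted p = 0.0347) and the fibroblast marker Lum, at or under 2.91 CPM, higher (0.0198). The part of these markers in the ERVL values was not tested. In these bulk libraries more cells of a kind and more RNA per cell cannot be told apart.

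MERVL-int took a larger share of the family in every treated library than in WT mESCs. In WT mESCs it gave 11.6% and 34.8% of all ERVL counts in replicates 1 and 2. The share was 79.3% and 74.2% in UNC0642 mESCs, 54.6% and 46.2% in Setdb1 KO cells and 82.7% and 76.5% in Setdb1 KO/UNC0642 mESCs. Relative to all counts of the library, MERVL-int went from 0.0096% and 0.0298% in WT mESCs to 0.898% and 0.452% in the combined condition. The stacked plot by library shows these shares on the CPM scale.

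**Figure D1:**
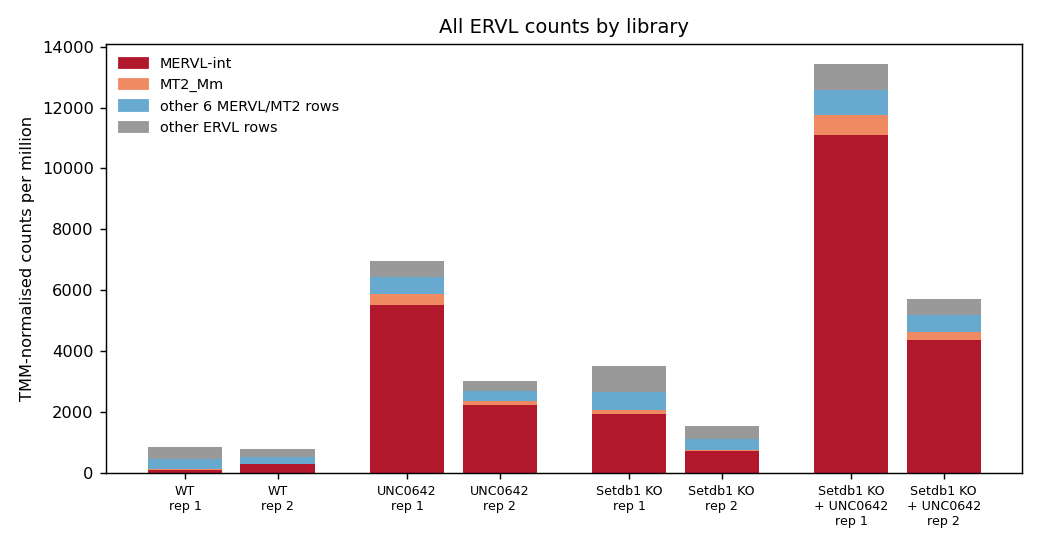
Summed TMM-normalised CPM of all ERVL subfamilies in each of the 8 libraries (x axis), split into MERVL-int, MT2_Mm, the other 6 MERVL/MT2 rows and the other ERVL rows. MERVL-int reaches 11090.5 CPM in replicate 1 of Setdb1 KO/UNC0642 mESCs, while the other ERVL rows sum to between 248 and 860.0 CPM in all libraries.

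The internal part MERVL-int, which encodes the retroviral Gag and Pol proteins, was at 97.9 and 270.3 CPM in WT mESCs. It was at 5523 and 2235 CPM in UNC0642 mESCs, at 1917 and 709 CPM in Setdb1 KO mESCs and at 11090.5 and 4365 CPM in Setdb1 KO/UNC0642 mESCs. In both replicates the order was the same, WT lowest, then Setdb1 KO, then UNC0642, then both together. No treated library overlapped WT.

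Its LTR, MT2_Mm, was at 10.6 and 17.3 CPM in WT mESCs. The levels were 333 and 111 CPM in UNC0642 mESCs, 128 and 46.9 CPM in Setdb1 KO cells and 654 and 256 CPM in Setdb1 KO/UNC0642 mESCs, in the same order as the internal part. The 2 rows come largely from the same proviruses and are not independent. Per count of MT2_Mm there were 9.21 counts of MERVL-int in replicate 1 of WT mESCs, and between 14.9 and 20.2 in the other 7 libraries.

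The other 6 rows were closer to WT. MERVL_2A-int, a second internal part, was at 71.6 and 69.1 CPM in WT mESCs, 196 and 119.5 in UNC0642 mESCs, 169 and 82.3 in Setdb1 KO cells and 297 and 151 in Setdb1 KO/UNC0642 mESCs. Every treated library was above both WT libraries, as for MERVL-int, but by far less. Among the LTRs, MT2C_Mm was at 12.5 and 12.6 CPM in WT mESCs, 26.5 and 17.6 in UNC0642 mESCs, 33.4 and 19.5 in Setdb1 KO cells and 53.0 and 46.8 in Setdb1 KO/UNC0642 mESCs. MT2B2 was at 33.9 and 23.8 CPM in WT mESCs, 54.2 and 43.3 in UNC0642 mESCs, 51.8 and 40.3 in Setdb1 KO cells and 81.6 and 99.3 in Setdb1 KO/UNC0642 mESCs. For these 2 LTRs too, no treated library overlapped WT.

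MT2B1 was at 56.1 and 37.1 CPM in WT mESCs, 88.8 and 45.8 in UNC0642 mESCs, 105 and 57.9 in Setdb1 KO cells and 139 and 88.5 in Setdb1 KO/UNC0642 mESCs. MT2A was at 41.3 and 27.5 CPM in WT mESCs, 56.6 and 35.0 in UNC0642 mESCs, 74.6 and 49.2 in Setdb1 KO cells and 77.3 and 60.7 in Setdb1 KO/UNC0642 mESCs. For MT2B1 and MT2A the libraries of UNC0642 mESCs overlapped WT and those of both KO conditions did not. MT2B, at 132 and 70.1 CPM in WT mESCs and 172 and 126 CPM in Setdb1 KO/UNC0642 mESCs, overlapped WT in every condition.

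**Figure D2:**
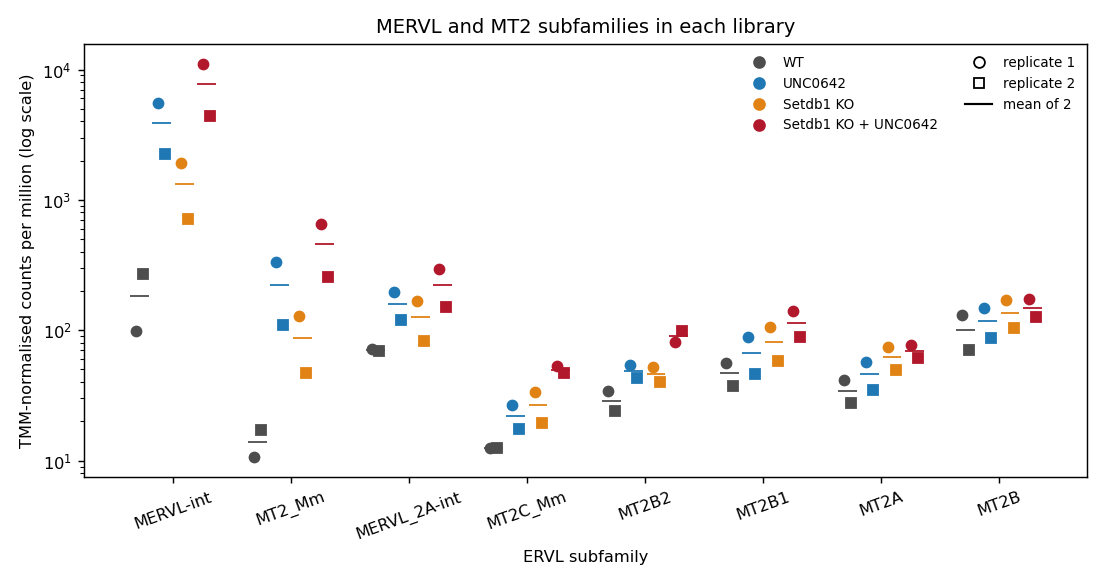
TMM-normalised CPM (log scale) of the 8 MERVL/MT2 subfamilies in every library, coloured by condition, with replicate 1 as circles, replicate 2 as squares and a line at the mean of the 2. MERVL-int and MT2_Mm span more than any other row, and replicate 1 is the lower library in WT mESCs and the higher one in all treated conditions for both.

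Setdb1 KO/UNC0642 mESCs were compared with WT mESCs to ask what the loss of SETDB1 and of G9a/GLP activity together does to the family. Of the 8 MERVL/MT2 rows, 3 rose (edgeR, adjusted p under 0.05 and fold change above 2), against 3.6% of all 16245 features tested. MERVL-int rose by 5.39 ± 0.95 on the log2 scale (SE, edgeR adjusted p = 0.0154), MT2_Mm by 5.02 ± 0.83 (adjusted p = 0.0123) and MT2C_Mm by 2.00 ± 0.45 (adjusted p = 0.0428). The log2 fold changes of the other 5 lay between 0.56 for MT2B and 1.67 for MERVL_2A-int, with adjusted p-values from 0.0533 to 0.629. Blocking on the replicate number, 7 of these 8 passed, all but MT2B (edgeR adjusted p = 0.091; up to 0.926 over 17 alternatives), against 9.47% of all features. No ERVL row fell in either fit, whereas 0.505% of all features fell without the block and 6.44% with it. Both libraries lay above both WT libraries for 7 of the 8 rows, and for 22.3% of all features.

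Without replicate 1 of WT none of the 8 rows was called, and the same held without replicate 2, the adjusted p-value of MERVL-int being 0.144 and 0.0994. The log2 fold change of MERVL-int then was 4.83 and 6.32, against 5.39 with all libraries. These fits have a WT arm of 1 library, which is assumed to vary like the other conditions, and a lost call there does not show a weaker effect. The adjusted p of MERVL-int over all 17 alternatives was at most 0.144, and it passed in 15 of them. MT2C_Mm passed in 8 of 17, with adjusted p-values up to 0.220.

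UNC0642 alone was set against WT mESCs for the part of G9a/GLP activity. No ERVL row was called by edgeR, nor was any other of the 16245 features (0.0%), and 3 of the 8 MERVL/MT2 rows had an unadjusted p under 0.05. Of all features, 481 had such a p upward. The log2 fold change was 4.40 ± 0.90 for MERVL-int (adjusted p = 0.246) and 3.99 ± 0.79 for MT2_Mm (adjusted p = 0.223), with both treated libraries above both WT libraries. DESeq2 called these 2 rows, both on all 8 libraries and on the 4 compared. No share over all features is given for DESeq2 here or below, so its calls cannot be set against one. With the replicate block the adjusted p was 0.0821 for MERVL-int and 0.0540 for MT2_Mm, while 0.166% of all features were called. Over all 17 alternatives each passed in 3, with adjusted p-values up to 0.989. Both libraries exceeded both WT libraries for 5 of the 8 rows, and for 13.7% of all features. Of the 86 other ERVL rows, 23 had both libraries above both WT libraries, and 3 had both below, against 10.7% of all features below.

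For the part of SETDB1, Setdb1 KO mESCs were compared with WT mESCs. No MERVL/MT2 row was called by edgeR, against 1.11% of all features, and 3 of 8 had an unadjusted p under 0.05. Of all 16245 features, 1149 had such a p upward. No ERVL row was called lower, and 0.00616% of all features were (0.486% with the block). The log2 fold change was 2.83 ± 0.84 for MERVL-int (edgeR adjusted p = 0.224) and 2.65 ± 0.75 for MT2_Mm (adjusted p = 0.194). MT2_Mm passed with the replicate block (adjusted p = 0.0471), as 1 of 8 rows, against 3.77% of all features. Over its 17 alternatives it passed in 4, with adjusted p-values between 0.00223 and 0.965, and MERVL-int passed in 3. DESeq2 on all 8 libraries called both. The log2 fold changes of the other 6 rows were between 0.44 and 1.08. Both libraries lay above both WT libraries for 7 of the 8 rows, against 17.5% of all features.

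The replicates differed in how far MERVL-int stood above WT, since replicate 1 was the lower library in WT and the higher one in every treated condition. Within replicate 1, MERVL-int was 56.4-fold above WT in UNC0642 mESCs, 19.6-fold in Setdb1 KO mESCs and 113-fold in Setdb1 KO/UNC0642 mESCs. Within replicate 2 the folds were 8.27, 2.62 and 16.2. Between treated conditions the replicates gave nearly equal ratios. Setdb1 KO/UNC0642 over Setdb1 KO mESCs gave 5.79 and 6.15, and over UNC0642 mESCs 2.01 and 1.95. Setdb1 KO over UNC0642 mESCs gave 0.347 and 0.317. MT2_Mm did the same, with 5.10 and 5.47, 1.96 and 2.32, and 0.385 and 0.424 for these ratios.

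These 3 comparisons between treated conditions were called for no MERVL/MT2 row in the fit to all 8 libraries without a block. For Setdb1 KO/UNC0642 over Setdb1 KO mESCs the log2 fold change was 2.56 ± 0.83 for MERVL-int (edgeR adjusted p = 0.785), and 3 of the 8 rows had an unadjusted p under 0.05 (454 of all 16245 features, upward). DESeq2 called MERVL-int. None of all features was called higher or lower there by edgeR (0.0%), and with the block 0.123% were higher, 0.00616% lower, and no ERVL row was either. For Setdb1 KO/UNC0642 over UNC0642 mESCs the log2 fold change was 0.99 ± 0.79 for MERVL-int (adjusted p = 0.949), and 2 rows had an unadjusted p under 0.05 (1035 of all 16245 features, upward), with 1.13% of all features called higher and 0.0369% lower. With the block MT2C_Mm passed in the latter (1.21, edgeR adjusted p = 0.0491; 0.0195 to 0.999 over 18 alternatives), against 3.79% of all features (0.825% lower). Setdb1 KO against UNC0642 mESCs gave -1.56 ± 0.80 for MERVL-int and -1.34 ± 0.71 for MT2_Mm (adjusted p = 1.00 for both), with no row at an unadjusted p under 0.05 in the fit without the block and 2, both lower, in that with it (654 of all 16245 features lower). Of all features 0.529% were called higher and 0.0123% lower there (2.22% and 0.412% with the block). The interaction of Setdb1 loss and UNC0642 was -1.84 ± 1.12 for MERVL-int and -1.61 ± 1.00 for MT2_Mm (log2, adjusted p = 1.00 for both), and 0 of 16245 features passed, 30 having an unadjusted p under 0.05 in the upward and 92 in the downward direction.

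As the replicates of WT differed in the opposite direction to those of the treated conditions, the 6 treated libraries were also fitted on their own with the replicate block, a choice made after seeing the data. MERVL-int was then 2.58 ± 0.22 higher on the log2 scale in Setdb1 KO/UNC0642 than in Setdb1 KO mESCs (edgeR adjusted p = 0.00113; up to 1.00 over the 18 alternatives), and MT2_Mm 2.40 ± 0.22 higher (adjusted p = 0.00151). They were 2 of 8 MERVL/MT2 rows called, against 1.08% of all 15972 features in that fit (0.131% lower). Over UNC0642 mESCs, MERVL-int was 0.98 higher (adjusted p = 0.0188), just under the fold threshold. MT2_Mm was 1.09 ± 0.21 higher (adjusted p = 0.0119) and MT2C_Mm 1.21 ± 0.26 higher (adjusted p = 0.0195), against 5.62% of all features (1.74% lower). Setdb1 KO mESCs held less than UNC0642 mESCs of MERVL-int, by -1.59 ± 0.21 on the log2 scale (adjusted p = 0.00226), and of MT2_Mm, by -1.31 ± 0.21 (adjusted p = 0.0064). No other ERVL row fell in that comparison, and 0.97% of all features did (3.32% rose).

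On the linear scale the level in the combined condition was more than the sum of the single rises. In replicate 1, MERVL-int stood 5425 CPM above WT with UNC0642 and 1819 CPM above it without Setdb1, which add to 7244, and 10993 CPM above it with both. In replicate 2 the rises were 1964 and 439, which add to 2403, and 4095 CPM with both. The ratio of the joint rise to the sum was 1.52 and 1.70 for MERVL-int and 1.46 and 1.94 for MT2_Mm. On the log scale the same values fell short of the sum, as the negative interaction term gives. For MT2A and MT2B the ratio was under 1 in replicate 1 (0.741 and 0.761) and 1.13 in replicate 2. These ratios are given as a description and were not tested.

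The other 105 ERVL rows hold older LTRs and internal parts, among them the RMER, MLT2, LTR16 and LTR33 groups. Their summed level was 388 and 248 CPM in WT mESCs, 542 and 319 in UNC0642 mESCs, 860.0 and 425 in Setdb1 KO cells and 851 and 516 in Setdb1 KO/UNC0642 mESCs. In the sum, Setdb1 KO mESCs stood 2.22-fold and 1.71-fold above WT, and Setdb1 KO/UNC0642 mESCs 2.19-fold and 2.08-fold. Both KO conditions were above both WT libraries, and the sum in the combined condition was 0.99-fold and 1.21-fold that in Setdb1 KO mESCs.

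The sum of the MERVL/MT2 rows, which MERVL-int dominates in treated cells, was higher with UNC0642 than with the deletion. It was 14.1-fold and 5.10-fold above WT in UNC0642 mESCs, 5.81-fold and 2.101-fold in Setdb1 KO mESCs and 27.6-fold and 9.84-fold in the combined condition. The ratio of MERVL/MT2 to other ERVL counts, which does not depend on the scaling of a library, was 1.17 and 2.13 in WT mESCs. It was 11.8 and 8.44 in UNC0642 mESCs, 3.08 and 2.61 in Setdb1 KO cells and 14.8 and 10.1 in Setdb1 KO/UNC0642 mESCs. The lowest library with UNC0642 thus lay above the highest without it. Since MERVL-int makes up most of that sum, the 6 rows other than MERVL-int and MT2_Mm were also summed, at 347 and 240.2 CPM in WT mESCs, 569 and 348 in UNC0642 mESCs, 603 and 353 in Setdb1 KO cells and 821 and 572 in Setdb1 KO/UNC0642 mESCs. Those 6 rows stood 2.36-fold and 2.38-fold above WT in the combined condition, beside 2.19-fold and 2.08-fold for the other ERVL rows. By row, Setdb1 KO over UNC0642 mESCs was below 1 in both replicates for MERVL-int, MT2_Mm, MERVL_2A-int (0.863 and 0.689) and MT2B2 (0.955 and 0.929). It was above 1 in both for MT2A (1.32 and 1.41), MT2B1 (1.18 and 1.26), MT2C_Mm (1.26 and 1.11) and MT2B (1.15 and 1.198), as it was for the summed other ERVL rows (1.59 and 1.33).

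Counted by row, the median log2 fold change over WT in UNC0642 mESCs was 0.79 for the MERVL/MT2 rows, 0.46 for the other ERVL rows and -0.02 for all features. In Setdb1 KO mESCs it was 0.84 for MERVL/MT2, 1.09 for the others and -0.02 for all features. In the combined condition it was 1.66, 1.204 and -0.01. Among the families most like ERVL, the median in the combined condition was 1.02 for ERVL-MaLR, 1.60 for ERVK and 1.53 for ERV1. Of all 94 ERVL rows tested, 92 had a log2 fold change above 0 there. So had 85 of 87 ERVL-MaLR rows, 269 of 273 ERVK rows, 93 of 103 ERV1 rows and 856 of all 932 subfamilies. Of all 16245 features, 8030 had one. In UNC0642 mESCs the family medians lay between 0.35 and 0.39 for ERVL-MaLR, ERVK and ERV1.

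**Figure D3:**
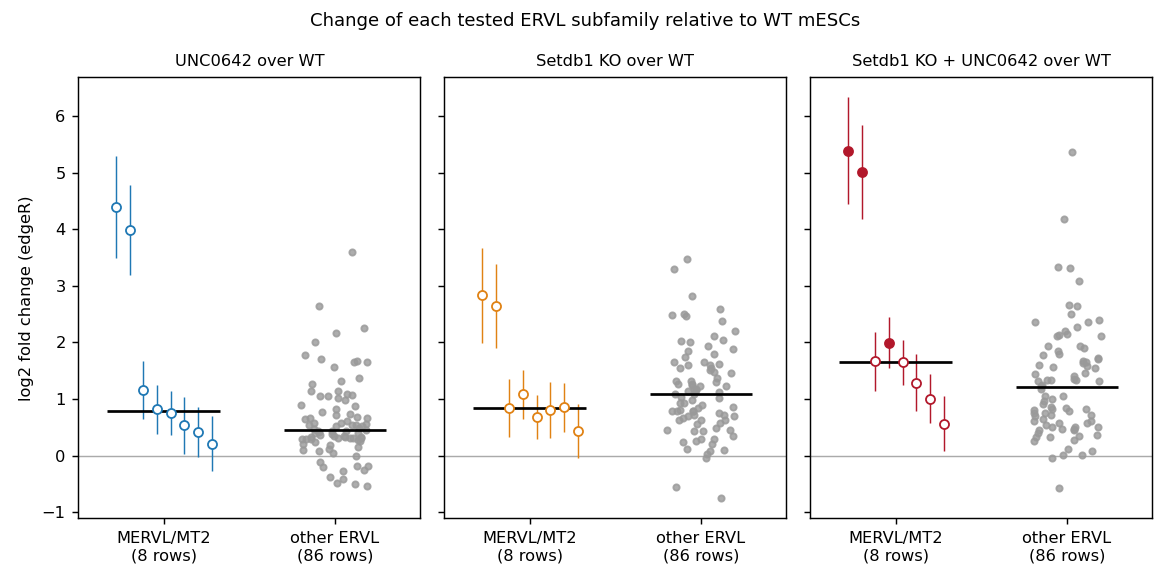
Log2 fold changes over WT mESCs (edgeR, all 8 libraries) of the 8 MERVL/MT2 rows, drawn from left to right as MERVL-int, MT2_Mm, MERVL_2A-int, MT2C_Mm, MT2B2, MT2B1, MT2A and MT2B with bars of 1 SE, and of the 86 other tested ERVL rows in grey. Filled circles passed an adjusted p of 0.05 and black lines are medians, at 0.79 and 0.46 for UNC0642, 0.84 and 1.09 for Setdb1 KO and 1.66 and 1.204 for both. Only MERVL-int and MT2_Mm stand far above the remaining MERVL/MT2 rows.

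None of the 86 other ERVL rows was called by edgeR without the block in any comparison. In Setdb1 KO/UNC0642 over WT mESCs 21 of them had an unadjusted p under 0.05, all in the upward direction, and the smallest adjusted p was 0.057 for MER70A. Of all 16245 features, 1771 had such a p upward. With the replicate block 19 of 86 were called higher (9.47% of all features), and DESeq2 on all 8 libraries called 7, all of them among those 19 (100% of the former list and 36.8% of the latter). The 19 were 22.1% of these rows, a smaller share than the 37.7% the block called of all subfamilies tested. It called 35.6% of ERVL-MaLR, 60.4% of ERVK and 47.6% of ERV1 rows. In Setdb1 KO over WT mESCs 16 had an unadjusted p under 0.05 (1149 of all 16245 features, upward). The block called 3, namely RMER15, MLT2D and ERVL-E-int (3.77% of all features). In UNC0642 over WT mESCs 3 of the 86 had an unadjusted p under 0.05, near the share of all features (481 of 16245, upward). The block called 0 of the 86 there. The 15 rows of smallest p among those 19 were LTR86A2, ERVL-B4-int, RMER15, MER70A, MLT2B1, ERVL-E-int, LTR40b, ERV3-16A3_I-int, MLT2D, RLTR35B_MM, LTR33B, LTR16A, RLTR28, MLT2B3 and LTR33A, with log2 fold changes in the block fit from 1.25 for RLTR28 to 4.65 for LTR86A2. Both libraries lay above both WT libraries for all 15 except RLTR28. The rows described in the next sentences were chosen after their values in the block fit were seen, apart from those with most counts.

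RMER15, a rodent LTR with the most counts of the other rows, was at 115 and 74.1 CPM in WT mESCs, 193 and 104 in UNC0642 mESCs, 326 and 143 in Setdb1 KO cells and 285 and 189 in Setdb1 KO/UNC0642 mESCs. Both KO conditions lay above WT, and UNC0642 mESCs overlapped it. Its log2 fold change was 1.31 in Setdb1 KO and 1.33 in Setdb1 KO/UNC0642 mESCs (edgeR adjusted p = 0.503 and 0.235, or 0.0251 and 0.00886 with the block, and up to 1.00 and 0.583 over 17 alternatives), and the combined condition differed from Setdb1 KO by 0.01 ± 0.53. The 2 rows next in counts, RMER10A and RMER10B, overlapped WT in every condition, with log2 fold changes in the combined condition of 0.90 and 0.58.

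LTR86A2 was at 0.174 and 0.180 CPM in WT mESCs, 3.95 and 0.540 in UNC0642 mESCs, 1.74 and 0.440 in Setdb1 KO cells and 13.3 and 1.99 in Setdb1 KO/UNC0642 mESCs. It followed the order of MERVL-int in replicate 1 and in replicate 2, but on 7 counts in both WT libraries together. It was also the one other ERVL row called in Setdb1 KO/UNC0642 over Setdb1 KO mESCs in the fit to the 6 treated libraries (2.63 ± 0.49, edgeR adjusted p = 0.0345).

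ERVL-B4-int, an internal part, was at 5.75 and 3.14 CPM in WT mESCs, 14.1 and 5.40 in UNC0642 mESCs, 10.8 and 6.66 in Setdb1 KO cells and 27.3 and 11.5 in Setdb1 KO/UNC0642 mESCs (log2 fold change 2.13, edgeR adjusted p = 0.135; 0.00532 with the block). ERVL-E-int, another internal part, was at 2.26 and 0.974 CPM in WT mESCs, 2.54 and 1.80 in UNC0642 mESCs, 5.76 and 5.78 in Setdb1 KO cells and 8.62 and 5.52 in Setdb1 KO/UNC0642 mESCs. Both stood apart from WT in the 2 KO conditions, and both overlapped it in UNC0642 mESCs.

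Across the 8 libraries, MT2_Mm was the ERVL row whose level was most like that of MERVL-int, with a Pearson r of 0.994 on log2 CPM. MERVL_2A-int followed at 0.925, then LTR40a at 0.918 and LTR86A2 at 0.911. MT2C_Mm had 0.868 and MT2B2 0.825. The median over the 86 other ERVL rows was 0.535, and 2 of them were above 0.9. The libraries share conditions, replicate numbers and depth, and these values are a description over 8 points.

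The 10 genes most like MERVL-int were Gm8300, Dcdc2c, Gm5662, Gm7102, Gm21319, Gm2016, Zscan4a, Aqp9, Gm4027 and Zfp352, with r between 0.988 and 0.995 over 8 libraries. Of these, Zscan4a belongs to a cluster of SCAN zinc finger genes that mark the two-cell-like state, and Zfp352 encodes a zinc finger protein of the two-cell embryo. Aqp9 encodes a water and glycerol channel. Zscan4a was at 2.26 and 7.58 CPM in WT mESCs, 174 and 60.3 in UNC0642 mESCs, 86.8 and 28.9 in Setdb1 KO cells and 270.3 and 117 in Setdb1 KO/UNC0642 mESCs. It shared with MERVL-int the order of the conditions in both replicates and the WT level that is lower in replicate 1 than in replicate 2. Genes chosen for a high r with MERVL-int are high where it is high, so their difference between the combined condition and WT is fixed by the choice and no test of it is given. Their order of conditions, that of Zscan4a included, largely follows from the same choice.

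**Figure D4:**
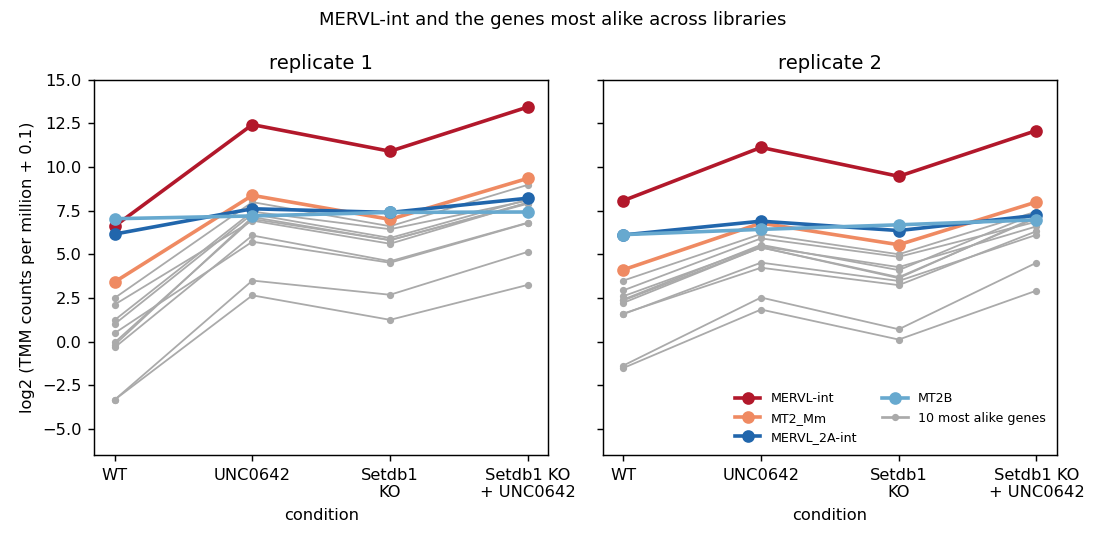
Level on the log2 scale (TMM-normalised CPM with a small constant added) of MERVL-int, MT2_Mm, MERVL_2A-int, MT2B and, in grey, the 10 genes most like MERVL-int, across the 4 conditions, with one panel per replicate. The grey lines keep the order of conditions seen for MERVL-int and MT2_Mm in both panels, which largely follows from the choice of these genes by r. MT2B spans less than MERVL-int and MT2_Mm in both.

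Outside ERVL the most alike subfamily was MER89 (r = 0.938), at 2.61 and 5.27 CPM in WT mESCs and 45.8 and 60.9 CPM in Setdb1 KO/UNC0642 mESCs. It was followed by X7C_LINE (0.930), RLTR9B (0.905), SRV_MM-int (0.895) and ERVB4_2-LTR_MM (0.891).

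A list of 48 genes known from two-cell embryos or from MERVL/MT2 promoters was followed beside the family. It was drawn up with earlier results of these data known. The count tables hold 46 of them, of which 42 passed the filter, and 33 rose in Setdb1 KO/UNC0642 over WT mESCs (38 with the block), against 3.6% of all features. Some members passed the filter only through treated libraries, such as Tdpoz1 (0 and 0 counts in WT) and Tdpoz5 (0 and 3). A rise of such members is in part fixed by the filter. Counts and medians of the list are therefore a description and no test of it. The median log2 fold change of the list was 5.62, and -0.01 for all features. In Setdb1 KO mESCs 4 rose (20 with the block, median 3.47) and in UNC0642 mESCs 0 (37 at an unadjusted p under 0.05, 7 with the block and 34 by DESeq2, median 4.497). Of all 16245 features, 1.11% were called higher in Setdb1 KO (3.77% with the block) and 0.0% in UNC0642 mESCs (0.166% with the block). In UNC0642 mESCs 481 of all features had an unadjusted p under 0.05 upward. Of the 42 genes, 33 had an r above 0.9 with MERVL-int, as had 167 of all 15313 genes. Not every member followed it. Zfp750 had log2 fold changes over WT of -1.63 in UNC0642 and -0.09 in Setdb1 KO/UNC0642 mESCs, and an r of -0.257. Eif1a and Zbed6 changed little in the combined condition (0.50 ± 0.71 and 0.03 ± 0.50), with r of 0.387 and 0.134. These members were picked with their values known. In UNC0642 mESCs 41 of the 42 genes had a log2 fold change above 0, as had 41 in the combined condition. Of all 16245 features, 7804 and 8030 had one in these 2 comparisons. Without replicate 1 of WT none of the 42 genes was called in the combined condition, and without replicate 2 of WT 9 were.

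The 3 genes of the list in the next sentences were chosen after their values were seen. Tdpoz1, a gene with TD and POZ domains, had 0 counts in both WT libraries. It was at 3.20 and 1.22 CPM in UNC0642 mESCs, 1.02 and 0.0550 in Setdb1 KO cells and 6.85 and 4.38 in Setdb1 KO/UNC0642 mESCs. Usp17lb, of a cluster of deubiquitinases, was at 0.261 and 0.469 CPM in WT mESCs, 54.2 and 22.02 in UNC0642 mESCs, 13.1 and 7.48 in Setdb1 KO cells and 135 and 79.6 in Setdb1 KO/UNC0642 mESCs. Both had the order of MERVL-int, with UNC0642 above Setdb1 KO in each replicate. Cml2 had another order, at 0.435 and 0.505 CPM in WT mESCs, 3.24 and 1.62 in UNC0642 mESCs, 16.3 and 16.5 in Setdb1 KO cells and 23.1 and 33.1 in Setdb1 KO/UNC0642 mESCs. Members of the Zscan4, Tdpoz and Usp17l clusters share near-identical sequence, so the split of reads among them is uncertain.

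Dux, which encodes the homeodomain factor that binds MT2_Mm LTRs and activates MERVL, had a pattern of its own. It was at 0.261 and 1.91 CPM in WT mESCs, 1.65 and 4.39 in UNC0642 mESCs, 2.37 and 11.5 in Setdb1 KO cells and 2.91 and 6.51 in Setdb1 KO/UNC0642 mESCs. In each replicate it was above WT in all treated conditions, but replicate 2 was the higher one throughout, the reverse of MERVL-int in treated cells. The value in replicate 1 of WT rests on 3 counts. Across replicates the libraries of UNC0642 mESCs overlapped WT. Dux had an r of 0.489 with MERVL-int, and its log2 fold change in the combined condition was 2.05 (edgeR adjusted p = 0.349, or 0.0200 with the block). Dux is a repeated gene, and reads from its copies may be shared.

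Of 37 tested genes known as regulators of MERVL or of the two-cell-like state, 0 were called in any comparison with WT by edgeR without the block, and 4 had an unadjusted p under 0.05 in Setdb1 KO/UNC0642 mESCs, 2 in each direction. Of all 16245 features, 1771 had such a p upward and 1155 downward there, a larger share. With the block, 2 of the 37 were called higher (Dux and Zfp809) and 2 lower (Setdb1 and Ehmt2) in Setdb1 KO/UNC0642 mESCs, where 9.47% of all features were higher and 6.44% lower. In Setdb1 KO mESCs the block called Dux and Zfp809 higher (2.59 and 1.61 on the log2 scale without the block, edgeR adjusted p = 0.0244 and 0.0249 with it) and Setdb1 lower, against 3.77% and 0.486% of all features. Ehmt2, which encodes G9a, was at 99.0 and 200.4 CPM in WT mESCs, 63.2 and 109.7 in UNC0642 mESCs, 86.0 and 118 in Setdb1 KO cells and 60.6 and 61.6 in Setdb1 KO/UNC0642 mESCs (log2 fold change -1.29, edgeR adjusted p = 0.185; 0.0235 with the block). Zfp809, a KRAB zinc finger factor that recruits TRIM28 and SETDB1 to retroviruses, was at 26.2 and 25.7 CPM in WT mESCs and 118 and 69.2 CPM in Setdb1 KO/UNC0642 mESCs. Kdm1a, whose loss is known to raise MERVL, was at 331 and 246 CPM in WT mESCs and 257 and 199 in Setdb1 KO/UNC0642 mESCs. Trim28, the corepressor that brings SETDB1 to its targets, was at 395 and 1301 CPM in WT mESCs, and lay between these values in all other libraries.

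Promoter sequences were searched for letters shared by genes that follow MERVL-int, because LTRs can serve as gene promoters. Of the 300 genes most like it, 198 entered the search with RefSeq promoter windows of 300 bases. Each window ran from 250 bases before to 50 after a start site (GRCm38.p6). A run of bases held by windows of at least 3 genes on at least 3 chromosomes was ATAAGGACATTGGAAG, 16 bases long. The run was found in Sp110, Gm21312 and Gm16381. It is not shown to be the longest such run over all windows of the 300 genes, nor the only one of 16 bases. Searched on both strands, it lay in 27 of all 32851 windows (0.0822%), of 26 genes, 6 of which were tested. The 100 bases before the start sites of these 6 are shown on the gene's strand so that the surroundings can be compared, with the shared run in capitals.
Sp110, chr1:85603892-85603991, minus strand: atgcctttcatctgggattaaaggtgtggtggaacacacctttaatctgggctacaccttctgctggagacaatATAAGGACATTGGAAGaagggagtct
Gm21312, chr10:104176924-104177023, plus strand: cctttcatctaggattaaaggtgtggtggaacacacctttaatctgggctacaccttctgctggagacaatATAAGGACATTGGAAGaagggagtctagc
D17Ertd648e, chr17:11883190-11883289, minus strand: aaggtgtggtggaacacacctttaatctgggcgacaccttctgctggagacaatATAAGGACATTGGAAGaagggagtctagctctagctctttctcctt
Sgk1, chr10:21986004-21986103, plus strand: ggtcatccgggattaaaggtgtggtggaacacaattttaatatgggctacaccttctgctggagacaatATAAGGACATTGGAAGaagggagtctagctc
Arih2, chr9:108653682-108653781, minus strand: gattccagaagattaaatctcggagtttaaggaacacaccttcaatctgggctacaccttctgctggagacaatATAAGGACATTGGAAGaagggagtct
Gm16381, chr12:87648984-87649083, minus strand: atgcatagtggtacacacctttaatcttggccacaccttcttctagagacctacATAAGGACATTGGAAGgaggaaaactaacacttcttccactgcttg

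Aligned on the run without gaps over 80 bases, Gm21312 matched Sp110 at all 80 bases, D17Ertd648e at 79, Sgk1 at 77, Arih2 at 71 and Gm16381 at 41. The run began 26 bases before the start site in Sp110 and Arih2, 29 in Gm21312, 31 in Sgk1 and 46 in D17Ertd648e and Gm16381. The windows were not matched to a repeat annotation, so they are not assigned to any subfamily here.

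The 6 genes differed in how they behaved. Sp110, a nuclear body gene of the interferon response, was at 0 and 0.289 CPM in WT mESCs, 3.06 and 2.34 in UNC0642 mESCs, 0.974 and 1.32 in Setdb1 KO cells and 6.33 and 10.99 in Setdb1 KO/UNC0642 mESCs. Gm21312 was at 0.784 and 6.57 CPM in WT mESCs, 145 and 103 in UNC0642 mESCs, 18.3 and 23.5 in Setdb1 KO cells and 129 and 201 in Setdb1 KO/UNC0642 mESCs. These 2 genes, and Gm16381, were among the 300 chosen for likeness to MERVL-int (r = 0.931, 0.937 and 0.908), so no test of their change is given. Gm21312 lies among near-identical windows on chromosome 10, and its counts may belong in part to neighbouring copies.

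Gm16381 stayed at or under 1.08 CPM and D17Ertd648e at or under 0.882 CPM (log2 fold change of the latter 2.43 ± 1.34, edgeR adjusted p = 0.396). Arih2, which encodes an ubiquitin ligase and has 2 windows, was at 77.5 and 114 CPM in WT and 82.6 and 92.0 CPM in Setdb1 KO/UNC0642 mESCs. Sgk1, which encodes a serine/threonine kinase and has 6 windows, was at 148 and 233 CPM in WT and 97.6 and 95.5 CPM in Setdb1 KO/UNC0642 mESCs (-0.98 ± 0.43, adjusted p = 0.272). A count per gene does not say which start site was used, and the run was chosen after the values of these genes were seen.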

How the data were processed

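Poly(A) RNA of 8 libraries of mESCs, 2 replicates in each of 4 conditions, was analysed. The authors trimmed the reads with Trim Galore 0.3.7, mapped them to GRCm38 (mm10) with TopHat2 and deposited the counts that TEtranscripts gave for genes and for subfamilies of transposable elements. TEtranscripts shares multi-mapped reads among copies, so similar subfamilies exchange reads and none can be traced to a locus. Strand of counting is not given in the sources used here. Conditions and replicate numbers came from the labels. The labels give 2 days of 4-OHT for the combined condition, the study's methods 5.

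From the counts, edgeR 4.0.16 (R 4.3.3) fitted a quasi-likelihood model with 1 coefficient per condition to all 8 libraries after filterByExpr (minimum count 10, minimum total 15), with TMM factors between 0.810 and 1.20 and a prior count of 0.125. Benjamini-Hochberg adjustment covered all 16245 features. Calls needed a fold change above 2 besides an adjusted p below 0.05. SEs were computed from the log2 fold change and the F statistic. CPM values are counts divided by the TMM-scaled library size. Alternatives were DESeq2 1.42.0, fits to the conditions compared only, a replicate block, RLE factors, TMM from genes only, total counts, no filter, no fold threshold or one of 10, a prior count of 2 and leaving out each library. A block fit to the 6 treated libraries was added after seeing the data. The scripts were tested on simulated counts. With 2 libraries against 2, an exact permutation test of a single value cannot go below p = 0.333, so none is given.

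Replicate numbers are shared by all conditions in the labels. Deviations between replicates 1 and 2 correlated between conditions at 0.285 to 0.663 over 15313 genes in all 6 pairs (-0.06 to 0.38 over the 94 ERVL rows). For the ERVL rows the values of WT with UNC0642, Setdb1 KO and Setdb1 KO/UNC0642 mESCs were -0.059, 0.006 and -0.018. The numbers were treated as pairing the samples only in the fits with a replicate block and in values given within a replicate. The main fit used no pairing. The members, lists and tests were chosen with earlier results of these data known. All MERVL/MT2 rows were named, with the 3 other rows of most counts, the other rows called (none without the block, so the 15 of smallest p with it), and the 10 genes and 5 subfamilies of highest r with MERVL-int. A floor of 3 counts corresponds to 0.108 to 0.311 CPM and covers counting error only.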

Additional observations from a re-analysis of the deposited data

How the results depend on the processing

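With the replicate block, the MERVL/MT2 rows called higher were 7 in Setdb1 KO/UNC0642, 1 in Setdb1 KO (both over WT) and 1 in Setdb1 KO/UNC0642 over UNC0642 mESCs. The other ERVL rows were 19 and 3 over WT, and two-cell genes 38, 20 and 7 (last UNC0642). The block changed no other count of calls among ERVL rows. DESeq2 on all 8 libraries called 5, 2 and 2 MERVL/MT2 rows over WT (combined, Setdb1 KO, UNC0642) and 1 in the combined condition over Setdb1 KO, 7 other ERVL rows in the combined condition, and 28 and 34 two-cell genes in Setdb1 KO and UNC0642 mESCs. DESeq2 on the 4 libraries compared called 2, 2 and 1 MERVL/MT2 rows in UNC0642 and Setdb1 KO over WT and in the combined condition over Setdb1 KO, 6 other rows in the combined condition, and 22 and 30 two-cell genes in Setdb1 KO and UNC0642 mESCs. edgeR on the 4 libraries called 2 MERVL/MT2 rows and 16 two-cell genes in Setdb1 KO, and 2 other rows in the combined condition. Without the filter there were 2 MERVL/MT2 rows and 20 two-cell genes in UNC0642, 19 two-cell genes in Setdb1 KO and 2 other rows in the combined condition. The block on the 6 treated libraries called 2 MERVL/MT2 rows and 1 other row in the combined condition over Setdb1 KO, 2 and 6 over UNC0642, and 2 rows lower in Setdb1 KO than in UNC0642 mESCs. For DESeq2, the edgeR fits to 4 libraries and the fit without the filter, no share over all features is given. Their counts of calls thus cannot be set against one.

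Leaving out 1 library gave 0 to 3 MERVL/MT2 rows, 0 to 1 other row and 0 to 35 two-cell genes in the combined condition over WT, 0 to 10 two-cell genes in Setdb1 KO and 0 to 2 in UNC0642. Both values of 0 MERVL/MT2 rows came from leaving out a WT library. Some log2 fold changes near 0 turned when 1 library was left out, and their ranges were, in UNC0642 over WT, -0.019 to 0.91 for MT2B1, -0.22 to 0.74 for MT2B (also -0.16), -0.089 to 0.82 for RMER10A (also -0.062) and -0.26 to 0.58 for RMER10B (also -0.023). In the combined condition they were -0.099 to 0.48 for MT2A (also -0.037) and -0.17 to 0.52 for MT2B (also -0.12) over Setdb1 KO, and -0.071 to 0.93 for MERVL_2A-int over UNC0642. The cause was not tested. MERVL-int and MT2_Mm kept their direction in every alternative run. Total counts scaling moved the median log2 fold change of all features in the combined condition over WT by -0.17. A WT library left out leaves that arm with 1 library, assumed to vary like the other conditions. At this depth 19 ERVL rows did not pass the filter.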
